A study of Mus musculus with 24 samples.

Results

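Tgm2 encodes tissue transglutaminase (gene ID 21817 in the deposited tables). It is 1 of 20555 genes measured by RNA sequencing in endothelial cells and microglia sorted from mouse brain slices, and was chosen by its endothelial levels, which separate the libraries of the exosome groups KO1 and KO2. Those endothelial levels are therefore given as a description, and tests were kept to comparisons that the choice did not use. On GRCm38.p6 the RefSeq gene lies on the minus strand of chromosome 2, from 158116405 to 158146392. Its longest protein-coding transcript in GENCODE has 13 exons and 3596 bases.

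Slices received PBS, or exosomes at 5 µg per slice stained with the membrane dye PKH67, over 2 days. The exosomes came from donor cells called wild type (WT) or from knockouts called KO1 and KO2, so the host brain carried no knockout, and the labels name neither the donor line nor the deleted gene. The series title concerns CEMIP, a hyaluronan-binding protein of tumour exosomes. Mouse Cemip in the host cells does not check the donor knockout. Only the outer ring of each slice was dissociated. Endothelial cells were gated as CD45- CD31+, and microglia as CD45+ CD11b low CD49d low. The labels call every sample exosome-positive, PBS included, so the gate applied to PBS slices is unclear. The labels also give each sample a letter, A, B or C, but do not say what it stands for. Nothing states that samples of a group came from separate animals. A p-value here sets a difference only against the spread among these samples, and that spread may be technical. In endothelial cells 10 libraries were used, 3 each of PBS and KO1, WT with letters A and B, and KO2 with letters B and C. In microglia 11 were used, 3 each of WT, KO1 and KO2, and PBS with letters A and B. Other labelled samples were not analysed here.

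Tissue transglutaminase crosslinks proteins by joining glutamine and lysine side chains when calcium is high, and in the calcium-poor cytosol it binds GTP and can act as a G protein downstream of alpha-1 adrenergic receptors. Outside the cell it binds fibronectin and integrins, stabilises the basement membrane, and is a ligand of the adhesion receptor encoded by Adgrg1. Endothelium is among the tissues known for high levels of it, and macrophages use it when they take up apoptotic cells. Retinoic acid, TGF-beta, NF-kB, IL-6 and hypoxia are its known inducers.

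Values below are normalised counts recovered from the deposited variance-stabilised log2 values, unless the deposited log2 scale is named. Library totals were 25.7 to 28.0 M normalised counts in endothelial cells and 27.6 to 30.3 M in microglia. The sorted endothelial cells held Pecam1 at 42620 to 56200 normalised counts, and Ptprc, the gene of CD45, was at 0 in 8 of 10 libraries. The microglia libraries held Ptprc at 1519 to 3976, and Csf1r, the receptor gene of the macrophage growth factor, at 699 to 2038. Their defining homeostatic receptors were nearly absent. P2ry12 was at 0 in 10 of 11 libraries and Gpr34 in 9 of 11, and Cx3cr1 had a median of 27.6. The cells are called microglia here by their gate. In sorted bulk samples, fewer cells of a type and less RNA per cell cannot be told apart.

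In endothelial cells Tgm2 stood highest after KO2 exosomes. KO2 B held 28558 and KO2 C 21150.5 normalised counts. The KO1 libraries held 7888.5 (A), 8435 (B) and 6694 (C). WT A held 9948 and WT B 8301. The PBS libraries held 10898 (A), 15285 (B) and 10255 (C). Both KO2 libraries lay above all 8 others, PBS lay above KO1 and above WT without overlap, and WT and KO1 overlapped. Of the 1068 endothelial genes tested, 10.3% had every PBS library above every KO1 library, and 22.9% had every PBS library above every WT library. Tgm2 took 0.107% of all normalised counts in KO2 B and 0.0805% in KO2 C, against 0.0250% to 0.0593% in the other libraries. KO2 B ranked it 94th and KO2 C 138th among all genes by count, while KO1 C ranked it 779th.

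The group means were 24854 ± 5238 (SD, n = 2) for KO2, 12146 ± 2737 (SD, n = 3) for PBS, 9125 ± 1165 (SD, n = 2) for WT and 7673 ± 890 (SD, n = 3) for KO1. In that order the KO2 mean was 2.05 times the PBS mean, the PBS mean 1.33 times the WT mean, and the WT mean 1.19 times the KO1 mean. Only the last pair of neighbours overlapped. The KO2 mean was 3.24 times the KO1 mean and 2.72 times the WT mean. Every KO2 library lay above every KO1 library for 7.87% of the 1068 endothelial genes tested, and above every other library for 1.22% of them. These percentages describe the contrast that chose the gene, and nothing is read from them.

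**Figure D1:**
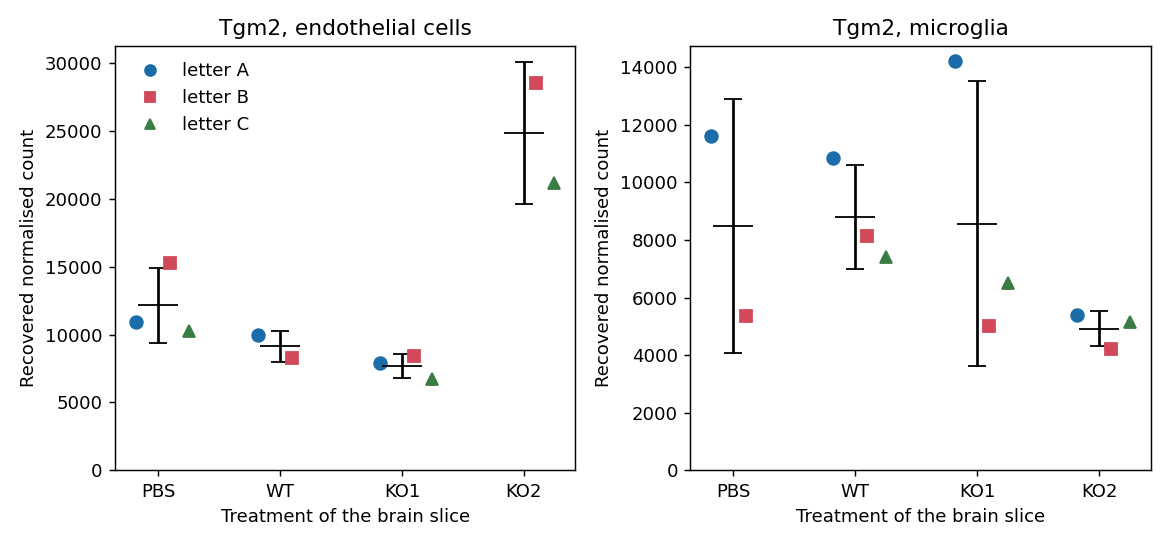
Recovered normalised counts of Tgm2 (y axis) in each library by treatment (x axis), in endothelial cells (left) and microglia (right), with separate y scales. Symbols mark the letters, horizontal lines the group means and bars 1 SD; the 2 endothelial KO2 libraries lie at 21150.5 and 28558, above all others, and the 3 microglia KO2 libraries at 4221 to 5389.

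KO2 was also the highest endothelial library within letters B and C, as it was for 9.46% of the 1068 genes. In letter B, KO2 held 3.39 times the Tgm2 count of KO1, 3.44 times that of WT and 1.87 times that of PBS. In letter C, KO2 held 3.16 times the count of KO1 and 2.06 times that of PBS. KO1 was below PBS in all 3 letters, which follows from the lack of overlap, with ratios of 0.724 (A), 0.552 (B) and 0.653 (C). Against WT, KO1 was lower in letter A, with a ratio of 0.793, and level in letter B, at 1.02.

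On the deposited log2 scale, the KO1 minus KO2 difference of Tgm2 was −0.86 (SE 0.117), the largest absolute difference among the 1068 endothelial genes. Tgm2 was chosen on this contrast, so nothing is read from that rank. KO2 was 0.75 (SE 0.128) above WT and 0.57 (SE 0.117) above PBS, and KO1 was −0.10 (SE 0.117) from WT and −0.29 (SE 0.105) from PBS. The comparisons with WT share the WT libraries, and those with PBS share the PBS libraries. The endothelial transform compresses differences even at these levels. On log2 of the recovered count plus 1, KO1 minus KO2 came to −1.69 (SE 0.235), KO2 minus WT to 1.44 (SE 0.258) and KO2 minus PBS to 1.04 (SE 0.235). In limma with Benjamini-Hochberg adjustment, 0.0936% of the 1068 genes were called between KO1 and KO2, which is 1 gene. This contrast chose Tgm2, so nothing is read from the count. It was 0 when KO1 A, KO1 B, KO1 C or KO2 B was left out.

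**Figure D2:**
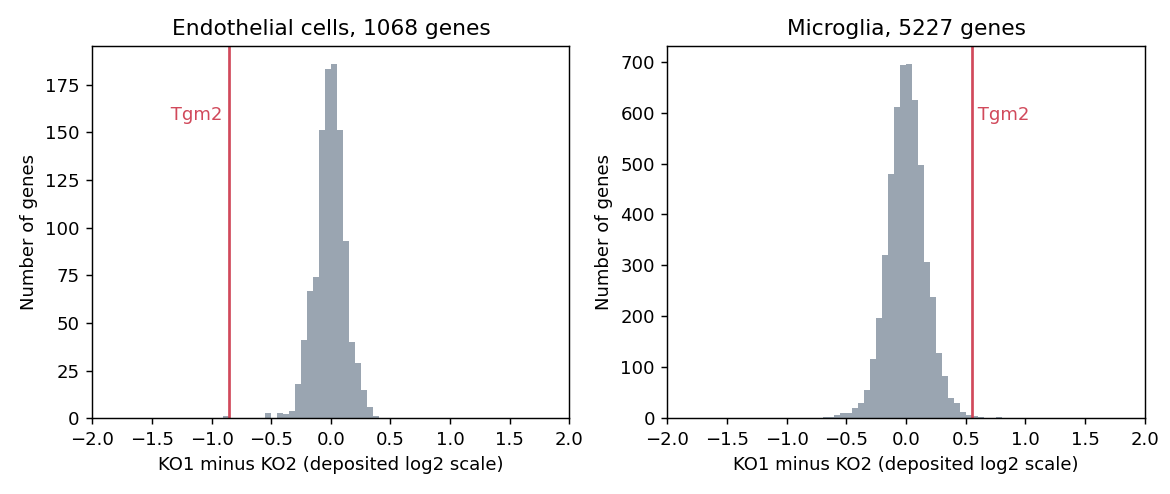
Number of genes (y axis) by their KO1 minus KO2 difference on the deposited log2 scale (x axis) in endothelial cells (1068 genes, left) and microglia (5227 genes, right). The red line marks Tgm2, at −0.86 in endothelial cells and 0.56 in microglia.

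The authors' deposited table of endothelial genes, named for a likelihood ratio test over the groups, lists Tgm2 8th of 362 by adjusted p. In the authors' deposited table its mean is 12741 normalised counts, its log2 fold change 1.56 with a standard error of 0.244, and its adjusted p 6.51e-13. The sources used here do not name the contrast of that fold change, and the test includes the groups that chose the gene. Tgm2 is not among the 238 microglia genes of the authors' deposited table.

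WT exosomes against PBS is the endothelial comparison whose difference uses no knockout library, and it asks what exosomes of unmodified donor cells change. Both WT libraries held less Tgm2 than all 3 PBS libraries, 8301 and 9948 against 10255 to 15285 normalised counts. That pattern, every PBS library above every WT library, held for 22.9% of the 1068 genes tested. On the deposited log2 scale, WT minus PBS was −0.18 (SE 0.117, 95% interval −0.44 to 0.08). The adjusted p was 0.415 in limma with Benjamini-Hochberg adjustment, so the difference did not pass the threshold. None of the 1068 genes was called in this comparison (0%), while 187 had an unadjusted p under 0.05. The SE and p-values rest on a spread pooled over all 10 libraries, KO1 and KO2 included. In a fit of the WT and PBS libraries alone, the SE for Tgm2 was 0.109 and its adjusted p in limma 0.357. That fit called 14 genes. Within letters, WT was lower by a ratio of 0.913 in A and 0.543 in B. Without PBS B the difference was −0.10.

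Other cell markers differed between the same groups. Summed markers of choroid plexus and ependyma (10 genes, led by Ttr) reached 172962 and 188329 normalised counts in the WT libraries, with 6 to 8 of the 10 at 100 or more, against 75.4 to 4728 in PBS, with 0 to 2. Arterial markers (9 genes) summed to 17914 to 27224 in WT and 30709 to 44026 in PBS, capillary markers (6 genes) to 14640 to 15618 and 24765 to 31734, and venous markers (5 genes) to 10897 to 15731 and 4953 to 7480. Pan-endothelial markers (10 genes) summed to 222081 to 242091 in WT and 253311 to 278833 in PBS. Astrocyte markers (8 genes) summed to 8379 to 16574 in WT and 18687 to 40958 in PBS. Of the 8, 2 to 3 stood at 100 or more in WT and 1 to 3 in PBS. Fibroblast and meningeal markers (9 genes) summed to 1859 to 3847 in WT and 593 to 1501 in PBS. Of the 9, 2 to 3 stood at 100 or more in each group, so few genes carried the astrocyte and fibroblast sums. The part of these cells in the WT minus PBS difference of Tgm2 was not tested. In KO2 the choroid plexus sum was 261689 in B, with 8 of the 10 markers at 100 or more, and 17394 in C, with 1. Tgm2 stood at 28558 and 21150.5 in these libraries. The KO1 sums were 168197 (A), 284612 (B) and 2956 (C), with Tgm2 at 7888.5, 8435 and 6694. The part of choroid plexus cells in the KO2 and KO1 levels of Tgm2 was not tested. The arterial sum was 23969 to 26799 in KO2, 18691 to 24488 in KO1 and highest in PBS. Markers of border-associated macrophages varied among the endothelial libraries, with sums of 1291 in KO2 B, 1287 in WT B and 0 in KO2 C and KO1 C. Monocyte and neutrophil markers were also highest in KO2 B, at 269, against 10.7 in KO2 C. The part of these cells in the Tgm2 level was not tested.

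**Figure D3:**
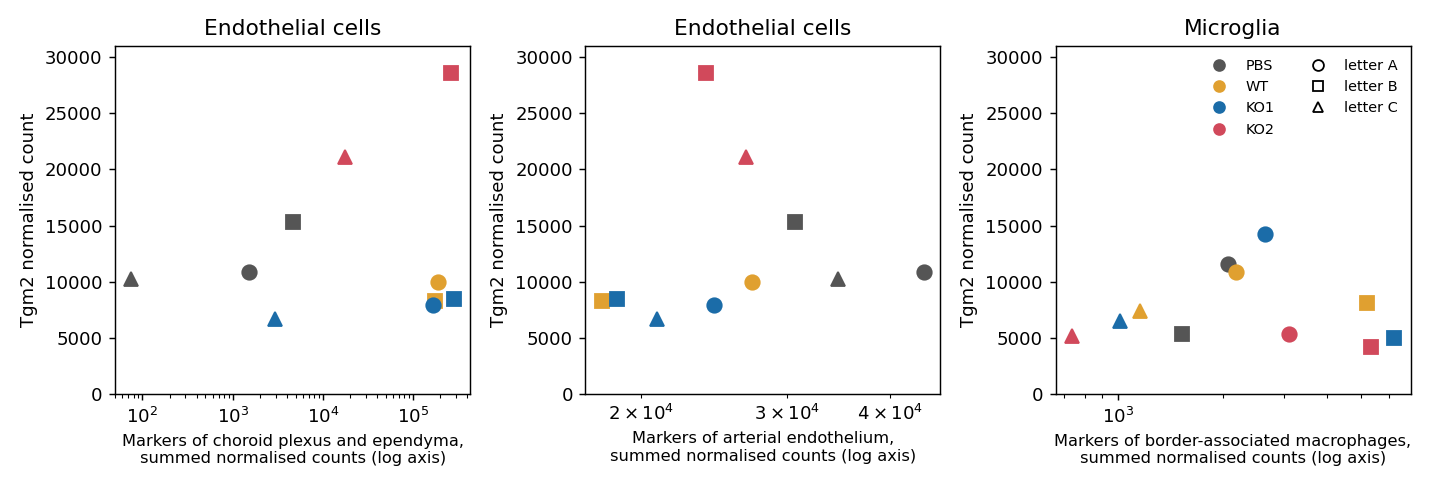
Tgm2 normalised count (y axis) against the summed normalised counts of marker lists (x axis, log scale): choroid plexus and ependyma and arterial endothelium in endothelial cells, and border-associated macrophages in microglia. Each point is a library, with colour for the treatment and shape for the letter; the KO2 endothelial points have choroid plexus sums of 17394 and 261689 with Tgm2 at 21150.5 and 28558.

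In microglia, libraries that the choice of the gene did not use, Tgm2 stood lowest after KO2 exosomes. The KO2 libraries held 5389 (A), 4221 (B) and 5134 (C) normalised counts, a narrow range. WT held 10839 (A), 8130 (B) and 7409 (C). KO1 held 14214 (A), 5001 (B) and 6496 (C), and PBS held 11612 (A) and 5362 (B). The A library was the highest of its group in each of the 4 groups. KO1 and PBS were the spread-out groups, and every pair of groups overlapped except WT and KO2.

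The microglia means were 8793 ± 1809 (SD, n = 3) for WT, 8570 ± 4945 (SD, n = 3) for KO1, 8487 ± 4419 (SD, n = 2) for PBS and 4915 ± 614 (SD, n = 3) for KO2. The neighbours WT and KO1, KO1 and PBS, and PBS and KO2 did not differ beyond their spread. The WT mean was 1.79 times the KO2 mean without overlap, a pattern that 3.79% of the 5227 microglia genes showed. KO2 was the lowest library in each of the 3 letters, as it was for 1.95% of the genes. Of the 908 genes tested in both tables, 0.441% combined this with KO2 as the highest endothelial library of letters B and C. The endothelial side of that pattern is what chose the gene, and nothing is read from this share.

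KO1 minus KO2 of Tgm2 in microglia was 0.56 on the deposited log2 scale (SE 0.307, 95% interval −0.11 to 1.22). The adjusted p was 0.999 in limma with Benjamini-Hochberg adjustment. With the letter as a block the SE was 0.189 and the adjusted p in limma 0.997. By absolute size the difference ranked 24th of 5227 genes. The value rested largely on KO1 A, and without it the difference was 0.17. None of the 5227 genes was called (0%), and 143 had an unadjusted p under 0.05. Within letters KO2 held 0.379 (A), 0.844 (B) and 0.790 (C) times the KO1 count.

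The mean of the knockouts minus WT was −0.40 on the deposited log2 scale (SE 0.266, 95% interval −0.97 to 0.18), with an adjusted p of 0.999 in limma after Benjamini-Hochberg adjustment. With the letter as a block the SE was 0.163 and the adjusted p in limma 0.999. That comparison also called 0 of 5227 genes (0%), with 132 at an unadjusted p under 0.05. Without WT A it was −0.25, and without KO1 B it was −0.26. Each knockout was then set against WT, a choice made after the values were seen. KO2 minus WT was −0.67 (SE 0.307, 95% interval −1.34 to −0.01), and its adjusted p in limma was 1.00. With the letter as a block its SE was 0.189 and its adjusted p in limma 0.999. Within letters KO2 held 0.497 (A), 0.519 (B) and 0.693 (C) times the WT count. KO1 minus WT was −0.12 (SE 0.307, 95% interval −0.78 to 0.55), and its sign turned to 0.15 without KO1 B and to 0.02 without WT A. These 2 contrasts share the WT libraries, and each called 0 of 5227 genes (0%), with 118 genes for KO2 and 145 for KO1 at an unadjusted p under 0.05.

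WT minus PBS of Tgm2 in microglia was 0.10 on the deposited log2 scale (SE 0.343, 95% interval −0.64 to 0.84), with an adjusted p of 0.994 in limma after Benjamini-Hochberg adjustment. The PBS group held only 2 libraries that lay far apart. Without PBS B the difference turned to −0.38, without WT A to −0.04, and without PBS A it was 0.58. Again 0 of 5227 genes were called (0%), with 253 at an unadjusted p under 0.05. The ratio of WT to PBS was 0.933 in letter A and 1.52 in letter B.

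**Figure D4:**
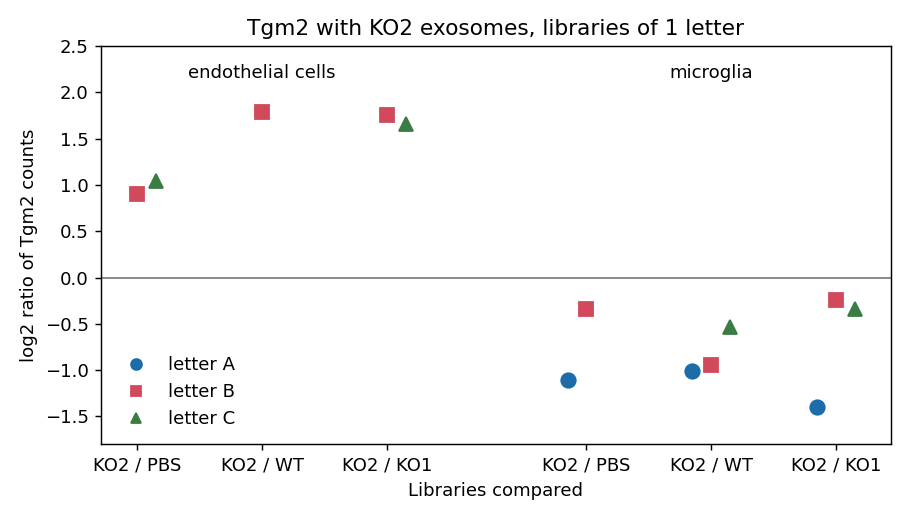
Log2 ratio of Tgm2 normalised counts (y axis) between the KO2 library and the PBS, WT or KO1 library of the same letter (x axis), by cell type. Each symbol is 1 pair of libraries; all endothelial ratios lie above 0 and all microglia ratios below 0, and the tables of the cell types were normalised separately.

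Endothelial markers were lower in the microglia libraries than in the endothelial ones, but not all were near 0. Cdh5 had a median of 0.630 normalised counts and Cldn5 of 1.22, against 21328 and 63093 in the endothelial libraries, and Pecam1 a median of 106 with a maximum of 281. The 10 pan-endothelial markers summed to 227 to 924. The 6 capillary markers summed to 3599 to 5537 in KO2, 4250 to 5337 in WT, 2092 to 5012 in KO1 and 6173 to 6414 in PBS, with 2 to 3 of the 6 at 100 or more. Venous sums reached 1470. Markers of border-associated macrophages, the resident macrophages of vessels and meninges, summed to 735 to 5342 in KO2, 1153 to 5198 in WT, 1014 to 6233 in KO1 and 1525 to 2074 in PBS, with 2 to 3 of the 8 at 100 or more. Mrc1 was at 0 in 6 of 11 libraries. Over the 11 libraries the correlation of this sum with Tgm2, both on log2, was −0.07. Of the 12 lists the correlations furthest from 0 were −0.65 for arterial markers, with sums of at most 461, −0.50 for fibroblast and meningeal markers, at most 180, and −0.46 for oligodendrocyte markers, with sums of 3210 to 9198. Monocyte and neutrophil markers followed at −0.45, with sums of at most 124, and capillary markers at −0.43. The highest positive value was 0.40, for pericyte and smooth muscle markers with sums of at most 541. The points of each correlation share libraries and normalisation, and the part of these cells in the Tgm2 level was not tested.

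Tgm2 was the only transglutaminase expressed at a substantial level in either cell type, and no other family member passed the filter for testing. Per kilobase of transcript its median was 2809 normalised counts in endothelial cells and 1806 in microglia, against 18.7 and 10.3 for Tgm4, the prostate transglutaminase. Levels in the 2 tables were normalised separately. Tgm5, Tgm6 and Tgm7 were at 0 in all 21 libraries. Tgm1, the keratinocyte enzyme, was detected in 1 of 10 endothelial and 5 of 11 microglia libraries, and Tgm3 at no more than 60.8. Epb42, the catalytically inactive red-cell member, reached 87.7. F13a1, the A chain of clotting factor XIII and a marker of border-associated macrophages, appeared in 1 endothelial library, KO2 B, at 481 normalised counts. In microglia F13a1 appeared in KO1 A at 527, KO1 B at 323 and KO2 B at 16.3, and in no PBS or WT library.

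The genes next to Tgm2 on chromosome 2 were far weaker. Of 4 neighbours on each side, Ctnnbl1, Vstm2l, Tti1 and Rprd1b towards lower coordinates and D630003M21Rik, Bpi, Lbp and Snhg11 towards higher ones, none passed the endothelial filter. Only Ctnnbl1, a spliceosome-associated gene, passed in microglia, where KO1 minus KO2 was 0.08 and knockout mean minus WT 0.04 on the deposited log2 scale. D630003M21Rik, the nearest neighbour at 36.1 kb, held at most 16.9 normalised counts in endothelial cells, and Rprd1b, on the other side at 38.2 kb, at most 459. Lbp, the gene of the lipopolysaccharide-binding protein, had endothelial means of 2927 ± 3268 (SD, n = 2) in KO2, 2112 ± 2546 (SD, n = 2) in WT, 1595 ± 1376 (SD, n = 3) in KO1 and 130 ± 26.6 (SD, n = 3) in PBS.

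Of 20 extracellular partners and substrates of the enzyme, 10 passed the endothelial filter. None was called for WT minus PBS in limma, which called 0 of all 1068 genes. On the deposited log2 scale 8 of the 10 were below 0 and their median was −0.35. Over all 1068 genes the median was −0.03 and 43.7% were above 0. That scale compresses differences more at lower counts, and the list was not matched for level. Sparc, a collagen-binding matrix protein, was −0.64 (SE 0.255), with 75228 ± 5513 (SD, n = 2) normalised counts in WT and 129924 ± 33985 (SD, n = 3) in PBS. The basement membrane genes Col4a1, Col4a2 and Lamc1 were −0.47, −0.40 and −0.36. The integrin genes Itgb1 and Itgb3 were −0.41 and −0.34, and Itga5, the alpha chain of the fibronectin receptor, was 0.21. Fn1, which encodes fibronectin, was −0.16. For KO1 minus KO2, 48.8% of all genes were above 0 and their median was 0.00. Of the 10, 7 were below 0 with a median of −0.10. Sparc had the lowest of these, −0.35 (SE 0.255), with 85569 ± 12693 (SD, n = 3) in KO1 and 119716 ± 56361 (SD, n = 2) in KO2.

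Adgrg1 had an endothelial mean of 10455 ± 1296 (SD, n = 2) normalised counts in KO2, 7739 ± 2295 (SD, n = 3) in KO1, 7950 ± 733 (SD, n = 2) in WT and 9635 ± 724 (SD, n = 3) in PBS. Its deposited log2 differences were −0.20 for KO1 minus KO2 and −0.12 for WT minus PBS. Rhoa, a small GTPase downstream of Adgrg1, differed by 0.01 and −0.09 in the same order. Calr, which encodes calreticulin, a chaperone described as a partner of the GTP-binding form, differed by −0.13 and 0.00. Of 10 other matrix crosslinking and collagen-modifying enzymes, such as the lysyl oxidases, none passed the endothelial filter. In microglia Plod1, Plod3 and P4ha1 passed, with differences from −0.23 to 0.16 over the planned comparisons.

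The lists for the inducers of Tgm2 held no called gene in either cell type. Endothelial WT minus PBS called 0 of 1068 genes and each microglia comparison 0 of 5227, so nothing is read from this. None of the 15 retinoid response genes passed the endothelial filter. Of 6 TGF-beta response genes tested there, 5 were below 0 for WT minus PBS, with a median of −0.28. Over all 1068 genes the median was −0.03 and 43.7% were above 0. Ccn1, a secreted matrix protein gene induced by TGF-beta and YAP, was −0.80 (SE 0.238), and Acvrl1, a TGF-beta family receptor of endothelium, −0.38 (SE 0.0968). The 6 IL-6 and STAT3 genes were all above 0 with a median of 0.10, led by Il6 at 0.29. The 7 NF-kB genes had a median of 0.03 and ranged from −0.37 for Tnfaip3, a feedback inhibitor, to 0.66 for Cxcl1, a neutrophil chemokine. Of 5 hypoxia genes, Slc2a1, the glucose transporter of the blood-brain barrier, was −0.51 and Ldha 0.40. For KO1 minus KO2 the medians of these 4 lists lay between −0.05 and 0.06.

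In microglia 9 of 11 NF-kB genes were above 0 for WT minus PBS, with a median of 0.42. Over all 5227 genes the median was −0.01, 48.3% were above 0 and 0 were called in limma. Cxcl1 was 1.33 (SE 0.807), Ccl2, the monocyte chemokine, 1.13 (SE 0.520) and Tnfaip3 0.82 (SE 0.346). Cxcl1 held 2570 ± 685 (SD, n = 2) normalised counts in PBS and 10893 ± 7759 (SD, n = 3) in WT. Of 16 genes of apoptotic cell uptake tested, 9 were above 0, and the receptor Mertk was 0.09. Spp1, which encodes osteopontin, a transglutaminase substrate, had the widest differences of the partner list. It held 165114 ± 151535 (SD, n = 2) in PBS, 37824 ± 20692 (SD, n = 3) in WT, 38073 ± 18292 (SD, n = 3) in KO1 and 101484 ± 48930 (SD, n = 3) in KO2. Its deposited log2 differences were −2.16 (SE 0.751) for WT minus PBS and −1.55 (SE 0.671) for KO1 minus KO2, and neither was called. Itgav, an integrin alpha chain, was −0.53 (SE 0.205) for WT minus PBS and 0.49 (SE 0.159) for the knockout mean minus WT. Both differences share the WT libraries, which held 808 ± 665 (SD, n = 3) normalised counts. Neither was called, with adjusted p of 0.967 and 0.999 in limma.

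The genes whose endothelial pattern was most like that of Tgm2 were ranked by Pearson's r on the deposited log2 values over 10 libraries, among 1067 other genes. They were Tcp1 (r = 0.84), a subunit of the TRiC chaperonin, Vps4b (0.82), an ATPase of membrane scission, Ywhae (0.75), a 14-3-3 protein, and Hnrnpab (0.74), an RNA-binding protein. Rnf11 (0.73), Itga6 (0.72), a laminin-binding integrin chain, Arrdc3 (0.71), an alpha-arrestin, and Actn4 (0.69), an actin crosslinker, followed. At the other end stood Atp2a2 (−0.81), the calcium pump of the endoplasmic reticulum, Tspan14 (−0.78), Rtn4 (−0.78) and Bzw1 (−0.76). This ranking used the KO1 and KO2 libraries that chose Tgm2. Spearman's rho ran from 0.44 (Hnrnpab) to 0.85 (Arrdc3) at the upper end and from −0.78 (Rtn4) to −0.43 (Tspan14) at the lower. Over deviations from the group means, r with Tgm2 was 0.96 for Hnrnpab, 0.86 for Tcp1 and 0.50 for Ywhae. It was 0.34 for Rnf11, 0.30 for Itga6 and 0.11 for Vps4b, and turned negative for Actn4 (−0.39) and Arrdc3 (−0.49). At the lower end it was −0.36 for Tspan14, −0.19 for Bzw1 and −0.13 for Atp2a2, and turned to 0.33 for Rtn4. Vps4b held 7149 and 7663 normalised counts in KO2 and 4074 to 5991 in the other libraries. Atp2a2 held 6039 and 7690 in KO2 and 8999 to 11585 elsewhere.

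In microglia, over 11 libraries and 5226 other genes, the most similar patterns were those of Ezr (r = 0.87), which links the membrane to actin, Eno1b (0.87), Eno1 (0.85), a glycolytic enzyme, Pomt2 (0.84), Fam210a (0.84), Sfxn3 (0.83), Ikzf5 (0.83) and Snrpc (0.82). Eno1 and Eno1b are near-identical copies, and how reads were split between them is uncertain. The lowest were Hmgn1 (−0.89), a nucleosome-binding protein, Tbpl1 (−0.86), Morc2a (−0.85) and Lsg1 (−0.84). Over deviations from the group means, r was 0.87 for Ezr and −0.92 for Hmgn1. Ezr reached 5244 normalised counts in the KO1 group and 4556 in PBS, and lay between 1828 and 2584 in KO2. No gene was named at both cell types' upper ends, and the points share library, depth and normalisation.

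**Figure D5:**
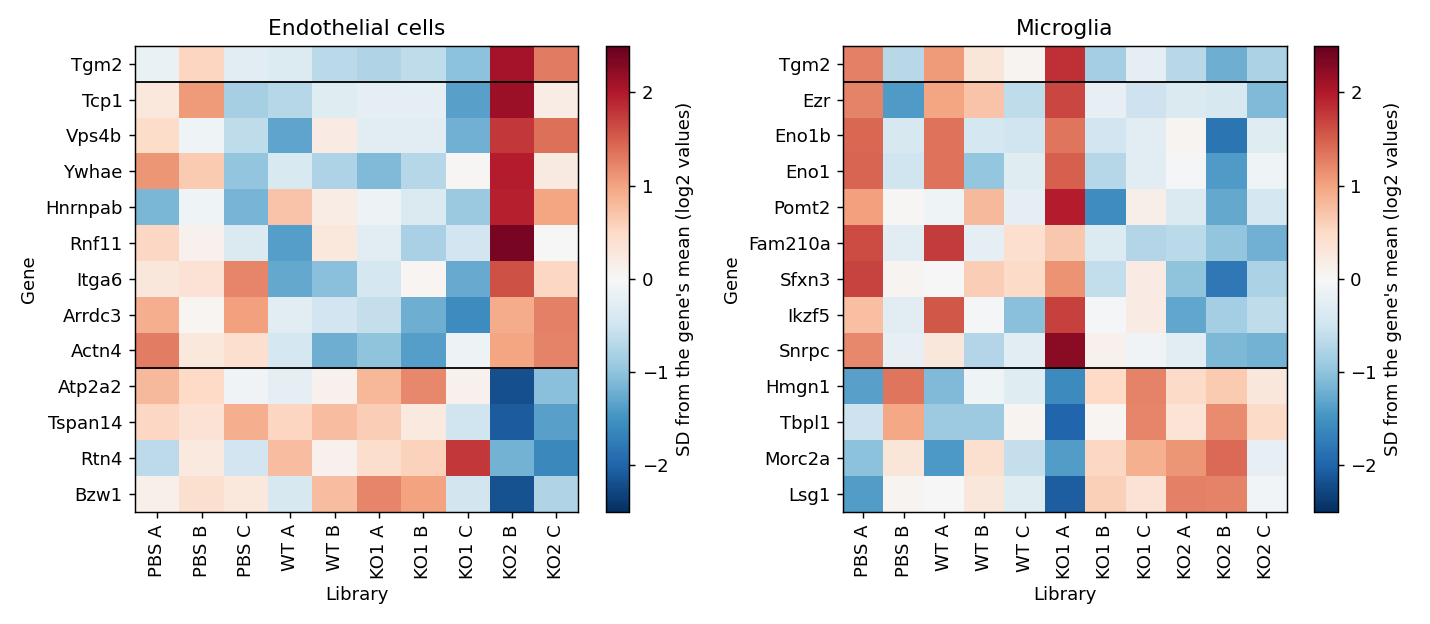
Tgm2 (top row) with the 8 most similar and 4 least similar genes (rows) across libraries (columns), in endothelial cells (left) and microglia (right). Colour gives the deposited log2 value in SD from the gene's mean; Tgm2 is highest in the 2 KO2 libraries of endothelial cells, and in KO1 A, PBS A and WT A of microglia.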

How the data were processed

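RNA from sorted cells was sequenced and processed by the authors; the submitters' processing notes name FastQC 0.11.7, Trimmomatic 0.38, Salmon 0.10.0, DESeq2 1.18.1 and GRCm38.p6, with no role or order. The authors deposited, per cell type, variance-stabilised log2 values of 20555 genes, so named in the labels, with a floor of 13.28 in endothelial cells and 9.89 in microglia. The authors also deposited lists of 362 and 238 genes with p-values, a mean normalised count (a signal), a log2 fold change, and as scores the test statistic and the standard error.

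Normalised counts were recovered from the deposited log2 values, by the closed inverse of the transform in endothelial cells and by a curve through the authors' 238 means in microglia. For genes held out, the largest error of the recovered mean was 1.25%, and 0.351% above a mean of 1000. The genes with the lowest and highest of the authors' means were never held out. The lowest of these means was 54.3, so the error covers neither smaller microglia counts nor single libraries. Read depth is unknown, so no counting interval is given. Symbols were matched for 20537 genes in the reference table of GRCm38.p6.

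Differences were fitted with limma 3.58.1 in R 4.3.3 (mean-variance trend, 1 fit per cell type holding every library) over genes whose mean lay at least 1 above the floor, 1068 in endothelial cells and 5227 in microglia, with Benjamini-Hochberg adjustment and a threshold of 0.05. The fit was tested on simulated data. Groups of 3 had been assumed, and some held 2. Tgm2 and the 10 gene lists and 12 marker lists were chosen with earlier results of these data known. Named besides Tgm2 were the 8 genes most and 4 least correlated with it per cell type, its family, 4 neighbours per side, and in each list the members with the largest differences or a set role.

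Deviations from group means correlated at 0.146 to 0.554 in all 9 same-letter pairs of the microglia WT, KO1 and KO2 libraries, above the limit of 0.1, so letters were taken to pair these. They were not so taken elsewhere, since 11 of 12 endothelial and 11 of 15 microglia pairs, PBS included, passed that limit. Unless the block is named, SEs, intervals and p-values come from the planned fit without the letter. They ignore the pairing also where letters were taken to pair the libraries. Alternatives were the filter, the scale and pseudocount (1 or 50), the trend, the letter as a block, fewer groups and leaving out each library.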

Additional observations from a re-analysis of the deposited data

Results flagged for a closer look

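The ratio of KO2 to KO1 for Tgm2 within a letter went opposite ways in the cell types. In endothelial cells KO2 held more than KO1 in both letters that had the pair, with ratios from 3.16 to 3.39. In microglia KO2 held less in all 3 letters, with ratios from 0.379 to 0.844. The ratio of KO2 to WT did the same, 3.44 in the only endothelial letter with the pair (B) and 0.497 to 0.693 over the 3 letters of microglia. The difference between the cell types was not tested, because their tables were normalised separately. The endothelial ratios come from the libraries that chose the gene, and the microglia differences did not pass limma's adjusted threshold.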

How the results depend on the processing

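The WT minus PBS difference of Tgm2 in endothelial cells stayed negative and short of the threshold in all 17 alternatives, from −0.40 to −0.10 (adjusted p 0.264 to 0.733 in limma). Leaving out 1 library moved it from −0.24 to −0.10. With the letter as a replicate block it was −0.24 (adjusted p 0.264). With a mean of at least 2 above the floor Tgm2 itself was not among the endothelial genes, so that setting gave no value.

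On log2 of recovered counts plus 1 or plus 50, the endothelial values were −1.69 and −1.68 for KO1 minus KO2, −0.25 and −0.25 for KO1 minus WT, 1.44 and 1.43 for KO2 minus WT, −0.65 and −0.64 for KO1 minus PBS, and 1.04 and 1.04 for KO2 minus PBS; the deposited scale compresses these differences by construction. Leaving out 1 library gave −0.99 to −0.72 for KO1 minus KO2, 0.62 to 0.89 for KO2 minus WT and 0.44 to 0.70 for KO2 minus PBS, and letters A and B only gave 0.89 for KO2 minus WT. Where an arm was left with 1 library, it was assumed to vary like the other groups.

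In microglia WT minus PBS turned to −0.38 without PBS B and −0.04 without WT A (range −0.38 to 0.58 over single libraries left out), and KO1 minus WT turned to 0.02 without WT A and 0.15 without KO1 B (range −0.50 to 0.15). Leaving out 1 library gave 0.17 to 0.82 for KO1 minus KO2 and −0.59 to −0.25 for the knockout mean minus WT. With the replicate block the microglia values were 0.56 (SE 0.189) for KO1 minus KO2 and −0.40 (SE 0.163) for the knockout mean minus WT. WT minus PBS came to 0.16, KO2 minus WT to −0.67 (SE 0.189) and KO1 minus WT to −0.12 (SE 0.189). These SEs were smaller than without the block, and the block changed no call of Tgm2.

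Called genes for endothelial WT minus PBS numbered 9 without a filter, 14 with the replicate block, 14 with only its own groups, 1 with letters A and B only and 0 to 14 with 1 library left out (2 without WT B, 5 without KO1 C, 14 without PBS B), against 0. For endothelial KO1 minus KO2 they numbered 3 without a filter, and 0 with a mean of at least 2 above the floor, with letters A and B only or with only its own groups, and 0 to 1 with 1 library left out, against 1. Microglia WT minus PBS called 1 without a filter and 46 with the block, and KO1 minus KO2 1 without a filter, against 0 each. The cause was not tested. Groups of 2 or 3 libraries limit all of these values.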

Other observations

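Among the 908 genes tested in both cell types, 4 (0.441%) had KO2 as the highest endothelial library within letters B and C and the lowest microglia library within letters A, B and C. The endothelial side of this pattern is what chose Tgm2, and nothing is read from the share. Besides Tgm2 they were Septin11, a cytoskeletal GTPase, Ptbp1, a splicing repressor, and Ralgds, an activator of Ral GTPases, named after their values were seen. Septin11 held 2604 to 3436 normalised counts in the microglia of KO2, 3587 to 5772 in KO1, 4183 to 6650 in WT and 4783 to 7683 in PBS. In endothelial cells Septin11 held 11484 and 17357 in KO2, 7170 to 15705 in KO1, 10370 and 16235 in WT and 7517 to 9584 in PBS, so its KO2 libraries overlapped those of KO1 and WT but not those of PBS. Ptbp1 held 12809 and 16409 in endothelial KO2 and 7948 to 14562 in KO1.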
